A study of Mus musculus with 71 samples.

Results

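The transcripts described here encode 10 abundant heat shock chaperones of mouse cells. Chosen by gene name among the 21527 genes in the files, they are the cytosolic HSP90 pair Hsp90aa1 and Hsp90ab1, the cytosolic HSP70 and HSP110 genes Hspa8, Hspa4 and Hsph1, the endoplasmic reticulum chaperones Hspa5 and Hsp90b1, and the mitochondrial chaperones Hspa9, Hspd1 and Hspe1. All 10 passed the filter on low counts and were measured in each of the 71 libraries, and they were followed both by their read counts and by the loss of label from their 3′ ends. Hspa5 was the 1 transcript of the 10 whose level and label both differed between the treatments at 8 h. Of all genes, 2.34% differed in level and 0.992% in label at that time. Hspa5 rose during the chase in the presence of STM2457, an inhibitor of the m6A methyltransferase Mettl3, and its conversion rate, the measure of label left, was higher at 5.3 and 8 h. At 5.3 h only its label and at 12 h only its level passed the threshold. The tests of label at single times were added after the rates had been seen. The difference in level at 8 h was called in 13 of 15 alternative settings, and missed the threshold without STM2457 replicate 3, among others.

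Molecular chaperones bind proteins that are not yet, or no longer, folded. HSP70 proteins grip short hydrophobic stretches and release them on a cycle of ATP binding and hydrolysis, which J-domain proteins speed up and HSP110 proteins reset by exchanging the nucleotide, while HSP90 proteins act late in folding on kinases, receptors and other clients. Each compartment has its own set: BiP (Hspa5) and GRP94 (Hsp90b1) in the endoplasmic reticulum, and mortalin (Hspa9) with the barrel and lid of the mitochondrial chaperonin (Hspd1 and Hspe1) in mitochondria. Heat shock factor 1 drives many of the cytosolic and mitochondrial genes, the unfolded protein response drives those of the endoplasmic reticulum, and embryonic stem cells are known for abundant chaperones in the absence of stress.

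Male mouse embryonic stem cells (mESC) were grown in medium with LIF and the kinase inhibitor pair known as 2i, labelled with 100 µM 4-thiouridine (s4U) for 24 h and chased with uridine. DMSO or 20 µM STM2457 was added 6 h before the chase and was present through it, so that 0, 1, 1.5, 2.3, 3.5, 5.3, 8 and 12 h of chase correspond to 6, 7, 7.5, 8.3, 9.5, 11.3, 14 and 18 h of treatment. Each treatment and time had 4 replicates, apart from STM2457 at 3.5 h with 3, and each treatment had 4 libraries without s4U, for which the sources used here give no duration of treatment. The labels number the chase times T0 to T7, and their hours were read from the time axis of the published decay curves, since the methods text gives only a constant ratio between time points. All groups are of the same cell type. Reads from 3′ ends were counted, and in labelled RNA T-to-C conversions mark incorporated s4U. Levels are given as reads per 1000000 counted reads (CPM). They were not compared between genes, since each gene has its own counting window and its own share of reads that map to several places. In bulk RNA, fewer cells that express a gene and less RNA per cell cannot be told apart.

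Between 4539726 and 7368244 reads were counted per library. The 9 pluripotency markers summed to 3790 to 5548 CPM in DMSO and 4051 to 5159 CPM in STM2457, with Pou5f1 at 647 to 1050 CPM and Klf4 lowest at a median of 2.71 CPM and at 0 in 3 libraries. The 8 fibroblast markers summed to 4.43 to 21.2 CPM and 6.67 to 24.1 CPM, most of it Thy1 (3.41 to 21.9 CPM, at 0 in no library), while Postn was at 0 in all 71 libraries and Col1a1, Col1a2 and Col3a1 stayed at or below 2.32 CPM. The 7 markers of early germ layers and primitive endoderm summed to 17.4 to 96.2 CPM and 19.3 to 72.1 CPM, with T at 4.57 to 74.5 CPM. The part of these cells in the results was not tested. Libraries differed along an axis that is not treatment or time alone. An index of this axis, the correlation over genes of log2 CPM with the GC content of the last 300 bases of the 3′ end (the 10 chaperones left out), ran from −0.50 to 0.28 and was below 0 in 27 libraries, 18 with DMSO and 9 with STM2457. It was below 0 in no library at 2.3, 3.5 and 12 h. Several chaperones moved with it. Median CPM in libraries below and above 0 was 1842 against 1212 for Hsp90aa1, 3636 against 2644 for Hspa8, 717 against 585 for Hspe1 and, in the other direction, 2783 against 3678 for Hsp90ab1. Hspa5 (795 against 806) and Hspd1 (1113 against 1129.5) were nearly level. Read-count comparisons of the chaperones are therefore given also with the index in the fit where it changes a call, an addition made after the data were seen. Conversion rates, half-lives and the other gene lists were not fitted with it.

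**Figure D1:**
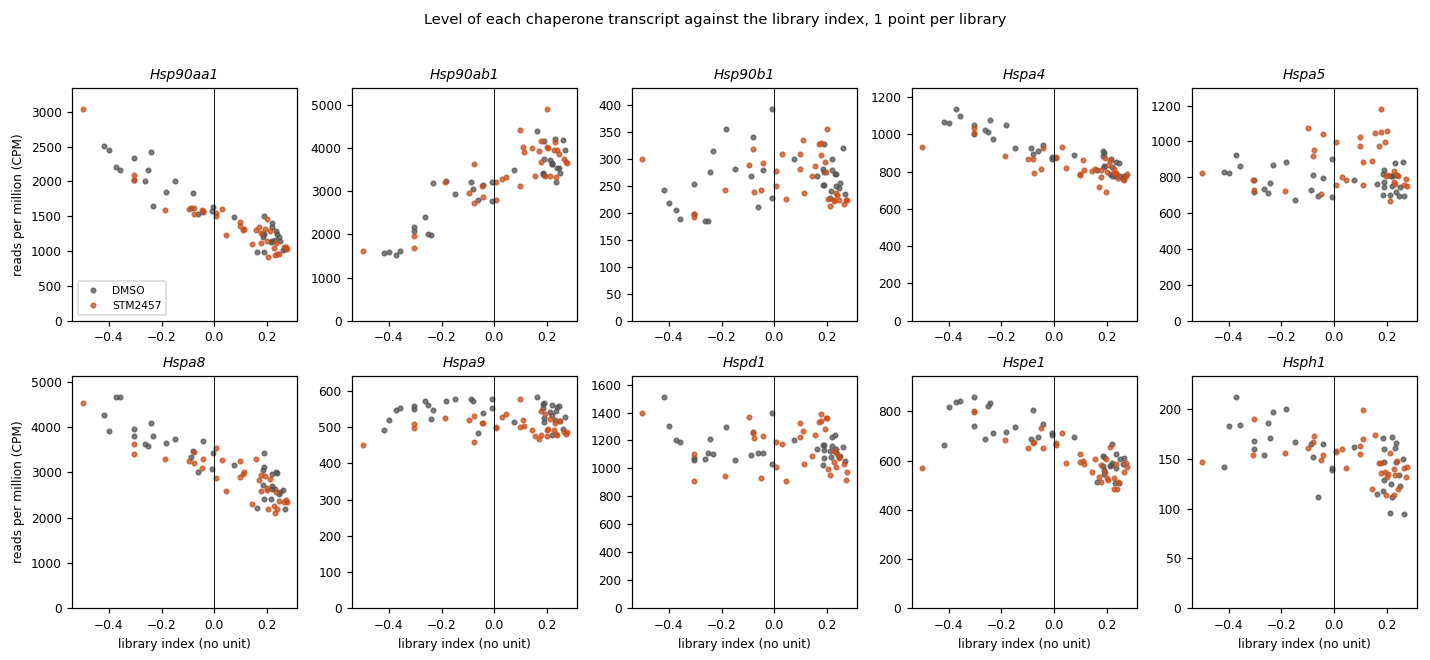
Level of each chaperone transcript (CPM, vertical axes starting at 0) against the library index (no unit) for all 71 libraries, DMSO in grey and STM2457 in orange, with a line at an index of 0. Hsp90aa1, Hspa8, Hspa4 and Hspe1 fall and Hsp90ab1 rises from left to right, whereas Hspa5 shows no such slope and its highest points are mostly STM2457 libraries.

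The upstream regions of 6 of the genes were given in the RefSeq promoter table of GRCm38.p6, and the 250 bases before the start site were searched on both strands. Hspa5 held 1 endoplasmic reticulum stress element with the letters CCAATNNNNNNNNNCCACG, the sequence through which the unfolded protein response acts on its targets, at positions −65 to −47 from the start site. Hsp90b1 held 2, at −212 to −194 and −107 to −89. This motif occurred in 0.113% of the 32851 upstream windows. Hspe1 had a run of heat shock units (3 or more alternating units, TTCNNGAANNTTC or GAANNTTCNNGAA) from −89 to −72, found in 0.466% of windows. The divergent neighbour Hspd1 shares this run, which lies at −144 to −127 of 1 of its 2 start sites. Hsph1 held the pair TTCNNGAA once in each of its overlapping windows, as did 7.17% of windows, and Hspa4 none of these. Of the 4 windows that hold the longer motifs, that of Hspd1 is left out because it overlaps the Hspe1 window and holds the same run on the other strand. The other 3 are shown, with those motifs in capitals. They lie at chr2:34771840-34772089 on the plus strand for Hspa5, chr10:86705445-86705694 on the minus strand for Hsp90b1 and chr1:55087898-55088147 on the plus strand for Hspe1, and each is written 5′ to 3′ and ends at the base before the start site.
Hspa5: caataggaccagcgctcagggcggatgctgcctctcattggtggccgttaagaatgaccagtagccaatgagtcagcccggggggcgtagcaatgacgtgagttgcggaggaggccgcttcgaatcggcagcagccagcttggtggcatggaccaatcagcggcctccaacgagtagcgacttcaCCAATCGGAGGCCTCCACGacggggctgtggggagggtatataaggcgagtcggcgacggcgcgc
Hsp90b1: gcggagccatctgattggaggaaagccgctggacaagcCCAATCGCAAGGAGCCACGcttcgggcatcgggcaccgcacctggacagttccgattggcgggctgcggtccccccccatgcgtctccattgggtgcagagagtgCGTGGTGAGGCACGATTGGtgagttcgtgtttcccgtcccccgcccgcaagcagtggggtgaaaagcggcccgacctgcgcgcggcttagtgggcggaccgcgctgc
Hspe1: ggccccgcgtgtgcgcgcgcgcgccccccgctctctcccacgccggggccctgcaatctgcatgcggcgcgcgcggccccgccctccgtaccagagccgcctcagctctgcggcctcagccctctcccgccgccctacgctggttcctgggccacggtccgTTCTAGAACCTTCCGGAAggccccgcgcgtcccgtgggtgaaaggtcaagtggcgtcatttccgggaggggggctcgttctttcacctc
A match says only that these letters are present.

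Averaged over the 8 chase times, 6 of the 10 chaperones differed between STM2457 and DMSO at an adjusted p under 0.01 (edgeR quasi-likelihood test over all 12659 genes tested), against 26.5% of all genes. Only Hspa5 was higher, where 13.9% of genes were, by 0.18 (SE 0.027, adjusted p = 1.1e-07) on the log2 scale. Hsp90aa1, Hspa4, Hspa8, Hspa9 and Hspe1 were lower, where 12.6% of genes were, by log2 differences from −0.17 to −0.09. The median difference was −0.05 for the 10 chaperones and −0.01 for all genes. With the library index in the fit, 3 remained, Hspa5 at 0.18, Hspa8 at −0.09 and Hspa9 at −0.10 (27.2% of genes called). Within the 3 times that have no library below an index of 0, Hspa5 alone was called, at 0.24 (SE 0.044, adjusted p = 3.8e-05), against 9.69% of genes. Single times gave few calls: none at 0, 1, 2.3 or 3.5 h or without s4U, 2 at 1.5 h, and 1 each at 5.3, 8 and 12 h, where 1.68%, 1.53%, 1.61%, 1.3%, 2.58%, 8.18%, 4.45%, 2.34% and 5.41% of all genes were called, in that order. At 0 h, 3 chaperones had an unadjusted p under 0.05 (Hsp90aa1, Hspa8 and Hspd1), and without s4U 5 had (Hsp90aa1, Hsp90ab1, Hspa4, Hspa8 and Hspe1). DESeq2 called none in either.

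**Figure D2:**
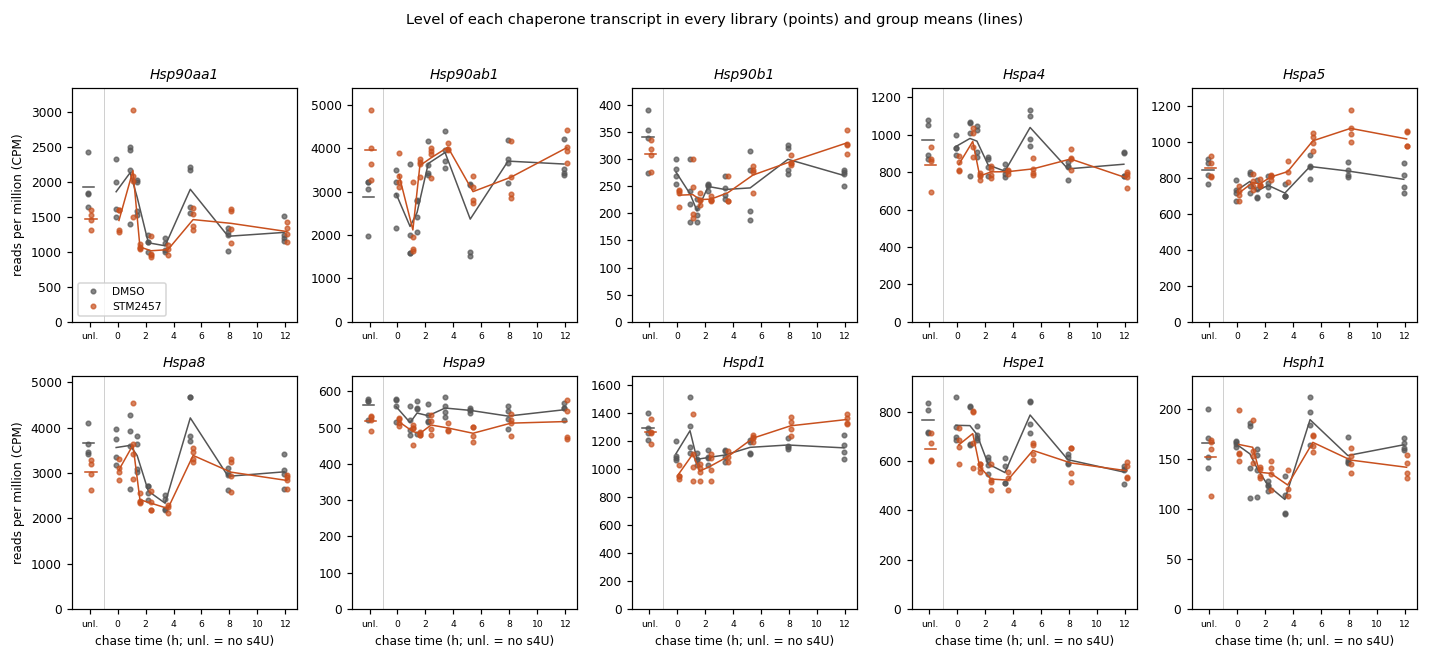
Level of each chaperone transcript in CPM (vertical axes starting at 0) against hours of chase, drawn to scale, with libraries without s4U left of the thin line. Points are libraries (4 per group, 3 for STM2457 at 3.5 h), lines join group means, DMSO is grey and STM2457 orange. Hspa5, Hspd1 and Hsp90b1 climb in STM2457 toward 8 and 12 h, and Hspa5 in STM2457 lies above all DMSO libraries at 5.3, 8 and 12 h.

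Hspa5 (chr2:34771970-34777547, plus strand, GRCm38 as all positions here) encodes BiP, the HSP70 of the endoplasmic reticulum, which folds secreted proteins and holds the stress sensors of that compartment inactive. At 0 h its level was 717, 671, 787 and 730.5 CPM in the DMSO libraries and 704, 725, 669.8 and 756 CPM in the STM2457 libraries, and the groups overlapped. At 5.3 h it was 795, 868, 862 and 924 CPM in DMSO and 995, 951, 1026 and 1047 CPM in STM2457. The groups no longer overlapped, although the difference of 0.25 (SE 0.074, adjusted p = 0.018) missed the threshold in edgeR. By 8 h the DMSO libraries had 805, 815, 886 and 843 CPM and the STM2457 libraries 1077, 1042, 1178 and 999 CPM. At 12 h the values were 748, 718, 816 and 881 CPM against 977, 975, 1057 and 1053 CPM. All STM2457 libraries at these last times lay above all DMSO libraries of the same time, by 1.29-fold at 8 h (0.37, SE 0.074, adjusted p = 0.00046) and 1.32-fold at 12 h (0.40, SE 0.075, adjusted p = 6.1e-05, edgeR). The difference stayed at 0.40 at 12 h with the index in the fit. At the 3 times before 2.3 h it was between −0.04 and 0.12 and was not called.

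Within the STM2457 chase Hspa5 rose from 714 ± 36.1 CPM (SD, n = 4) at 0 h to 1015 ± 45.6 CPM (SD, n = 4) at 12 h, a log2 change of 0.39 (SE 0.074, adjusted p = 0.00014). Without the libraries of STM2457 replicate 3 this was 0.35 and was not called, and the difference at 8 h was 0.33 and was not called either. The difference at 8 h was called in 13 of the 15 alternatives run, and that at 12 h in all 15. In DMSO the same interval gave −0.02 (95% interval −0.16 to 0.13). Labelled libraries at 0 h stood lower than libraries without s4U, though not past the threshold. Without s4U, Hspa5 stood at 841 ± 63 CPM (SD) under DMSO and at 853 ± 57.5 CPM (SD) under STM2457, with 4 libraries each, above both groups at 0 h. The 0 h libraries serve in both comparisons, so the lower starting point and the later rise are not independent. The STM2457 libraries at 8 and 12 h, however, lay above all 8 libraries without s4U.

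Hsp90b1 (chr10:86690209-86705509, minus strand) encodes GRP94, the HSP90 of the endoplasmic reticulum, which folds integrins and Toll-like receptors. Its level was 254, 281, 300.4 and 269 CPM in DMSO and 242, 243, 212 and 237 CPM in STM2457 at 0 h. At 12 h it was 276, 250.2, 281 and 273 CPM in DMSO and 309.5, 327, 355 and 329 CPM in STM2457. The STM2457 libraries were thus all below the DMSO libraries at 0 h and all above them at 12 h. Neither difference was called in edgeR, with −0.22 (SE 0.12, adjusted p = 0.36) at 0 h and 0.33 (SE 0.12, adjusted p = 0.068) at 12 h. Libraries without s4U had 275 to 392 CPM in DMSO and 276 to 336 CPM in STM2457. The STM2457 libraries at 12 h thus lay within the range of the DMSO libraries without s4U. From 5.36% to 50.1% of the reads of this gene mapped to several places, depending on the library, and no other chaperone here varied as widely in this share.

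Hspd1 (HSP60) forms the barrel of the mitochondrial chaperonin and Hspe1 (HSP10) its lid, and the genes lie head to head, Hspd1 at chr1:55077835-55088243 on the minus strand and Hspe1 at chr1:55088132-55091307 on the plus strand. Hspd1 at 0 h was read at 1077, 1063, 1202 and 1093 CPM in DMSO and 928, 949, 952 and 1028 CPM in STM2457. By 12 h it was at 1072, 1119.6, 1167 and 1239 CPM in DMSO and 1323, 1329, 1362 and 1392 CPM in STM2457. Like Hsp90b1, it began lower in each STM2457 library than in each DMSO library and ended higher. The difference was −0.18 (SE 0.082, adjusted p = 0.24) at 0 h and 0.27 (SE 0.082, adjusted p = 0.019) at 12 h, neither called in edgeR. With the index in the fit the value at 12 h was 0.27 (SE 0.079, adjusted p = 0.0095), which was called, as were 8.15% of genes. Averaged over the chase the difference was 0.00 (95% interval −0.06 to 0.05). Within STM2457, Hspd1 rose by 0.37 (SE 0.082, adjusted p = 0.0012) from 0 to 12 h. Without the libraries of STM2457 replicate 2 or 3 this was 0.36 or 0.37 and was not called. Libraries without s4U had 1207 to 1395 CPM of Hspd1 in DMSO and 1175 to 1357.5 CPM in STM2457. The STM2457 libraries at 12 h thus lay within the range of the DMSO libraries without s4U, and the rise began from a lower level at 0 h. A median of 83.9% of its reads mapped to several places, so its counts may hold reads of near-identical copies, and its values moved when such reads were left out. The rise within STM2457 was then 0.33 (adjusted p = 0.085), DMSO had −0.41 (adjusted p = 0.011) over the same interval, and the difference at 12 h was 0.42 (adjusted p = 0.016), none of them called. The difference at 1.5 h was called, at −0.45 (adjusted p = 0.0069), and so was a falling line over the DMSO chase, at −0.39 per 12 h (adjusted p = 0.0011), beside a rising one in STM2457 at 0.36 (adjusted p = 0.0039).

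Hspe1 fell over the chase in both treatments. It was at 859, 737, 696 and 686 CPM in DMSO and 734, 685, 655 and 586 CPM in STM2457 at 0 h, and at 563, 569, 579 and 509 CPM and 596, 535, 531 and 580.1 CPM at 12 h. The change was −0.56 (SE 0.10, adjusted p = 7.0e-06) in DMSO and −0.37 (SE 0.10, adjusted p = 0.0072) in STM2457, and with the index in the fit it was −0.47 and −0.33, both still called. The fall in DMSO was called in 15 of 15 alternatives and that in STM2457 in 7 of 15. In STM2457 the partner genes of the chaperonin thus had changes of opposite sign, with Hspd1 up and Hspe1 down. The call for Hspd1 held in 12 of 15 alternatives, and the genes were not tested against each other. Between the treatments Hspe1 was called at no single time. Its averaged difference, −0.12 (SE 0.034, adjusted p = 0.0043), was not called with the index in the fit (adjusted p = 0.011).

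Hspa9 (mortalin) pulls imported proteins into the mitochondrial matrix. Its level varied least of the 10, between 452 and 584 CPM over all libraries. Without s4U it was 579, 574, 572 and 522 CPM in DMSO and 491, 521, 528 and 532 CPM in STM2457, and at 0 h it was 559, 577, 515 and 579 CPM against 512, 525, 523 and 504 CPM. The fitted difference was below 0 at 8 of 8 chase times, also with the index in the fit, though it was called at none of them. Averaged over the chase it was −0.09 (SE 0.025, adjusted p = 0.0017), that is 0.94-fold, and −0.10 with the index. It was −0.09 and not called without the libraries of DMSO replicate 2 or STM2457 replicate 2.

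The cytosolic HSP90 genes moved in opposite directions across libraries. Hsp90aa1 (chr12:110690605-110702728, minus strand), the stress-inducible form, was found between 919 and 3032 CPM, and Hsp90ab1 (chr17:45567775-45573271, minus strand), the constitutive form, between 1524 and 4894 CPM. At 1.5 h, where the index separates the treatments completely (all 4 DMSO libraries below 0, all 4 STM2457 libraries above), Hsp90aa1 was at 1578, 2022, 1524 and 2001 CPM in DMSO and 1118, 1059, 1036 and 1062 CPM in STM2457, with no overlap. The difference was −0.69 (SE 0.14, adjusted p = 0.00030) and shrank to −0.13 (adjusted p = 0.55) with the index in the fit and to −0.20 (adjusted p = 0.65) without multimapping reads, called in neither. Hsp90ab1 at the same time was at 2783, 2081, 2806 and 2413 CPM in DMSO and 3332, 3686, 3644 and 3747 CPM in STM2457, also with no overlap. Its difference turned from 0.56 to −0.20 with the index, and neither value was called. At 12 h, with all indexes above 0, Hsp90aa1 was at 1504, 1246, 1197 and 1159.7 CPM in DMSO and 1421, 1339, 1144 and 1253 CPM in STM2457, which overlap (difference 0.05, 95% interval −0.22 to 0.32). At least 97.6% of Hsp90aa1 reads mapped to several places in each library, and reads of its close copies cannot be told apart from its own. Without those reads its averaged difference was −0.14 (adjusted p = 0.22) and was not called.

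Hspa8 (HSC70, chr9:40800984-40810087, plus strand), the constitutive cytosolic HSP70, and Hspa4 and Hsph1, of the HSP110 family that exchanges its nucleotide, followed the same library axis. At 1.5 h Hspa8 was at 3082, 3808, 3009.6 and 3636 CPM in DMSO and 2564, 2386, 2335 and 2354 CPM in STM2457, a difference of −0.44 (SE 0.10, adjusted p = 0.00084), and −0.08 with the index in the fit. At 12 h it was at 3419, 2981, 3056 and 2637 CPM against 2904, 2833, 2647 and 2951 CPM, and the groups overlapped. Averaged over the chase Hspa8 was 0.90-fold of DMSO (−0.15, SE 0.035, adjusted p = 0.00047). With the index it was lower in STM2457 at 8 of 8 times, averaging −0.09 (SE 0.025, adjusted p = 0.0025). Without the libraries of STM2457 replicate 3 the average was −0.12 and was not called. A median of 67.7% of its reads mapped to several places.

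Hspa4 (chr11:53259814-53300457, minus strand) at 5.3 h was read at 942, 976, 1102 and 1134 CPM in DMSO and 874, 795, 784 and 816 CPM in STM2457. These did not overlap, with a difference of −0.31 (SE 0.080, adjusted p = 0.0065), and with the index it was −0.18 (adjusted p = 0.22). The call held in 7 of 15 alternatives and was lost without DMSO replicate 3 or 4 or without STM2457 replicate 2, 3 or 4 (−0.34 to −0.27). At that time 4 DMSO libraries but only 1 STM2457 library had an index below 0. Hsph1 (HSP105, chr5:149614287-149636376, minus strand) was found between 94.9 and 213 CPM. At 0 h it was at 168, 167, 162 and 165 CPM in DMSO and 149, 156, 156 and 199.5 CPM in STM2457, and at 12 h at 159.7, 166, 171 and 161 CPM and 155, 146, 132 and 136 CPM. The groups overlapped at 0 h and did not at 12 h, where the difference was −0.18 (SE 0.12, adjusted p = 0.40) and was not called. Averaged over the chase it was 0.00, with a 95% interval of −0.08 to 0.08.

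**Figure D3:**
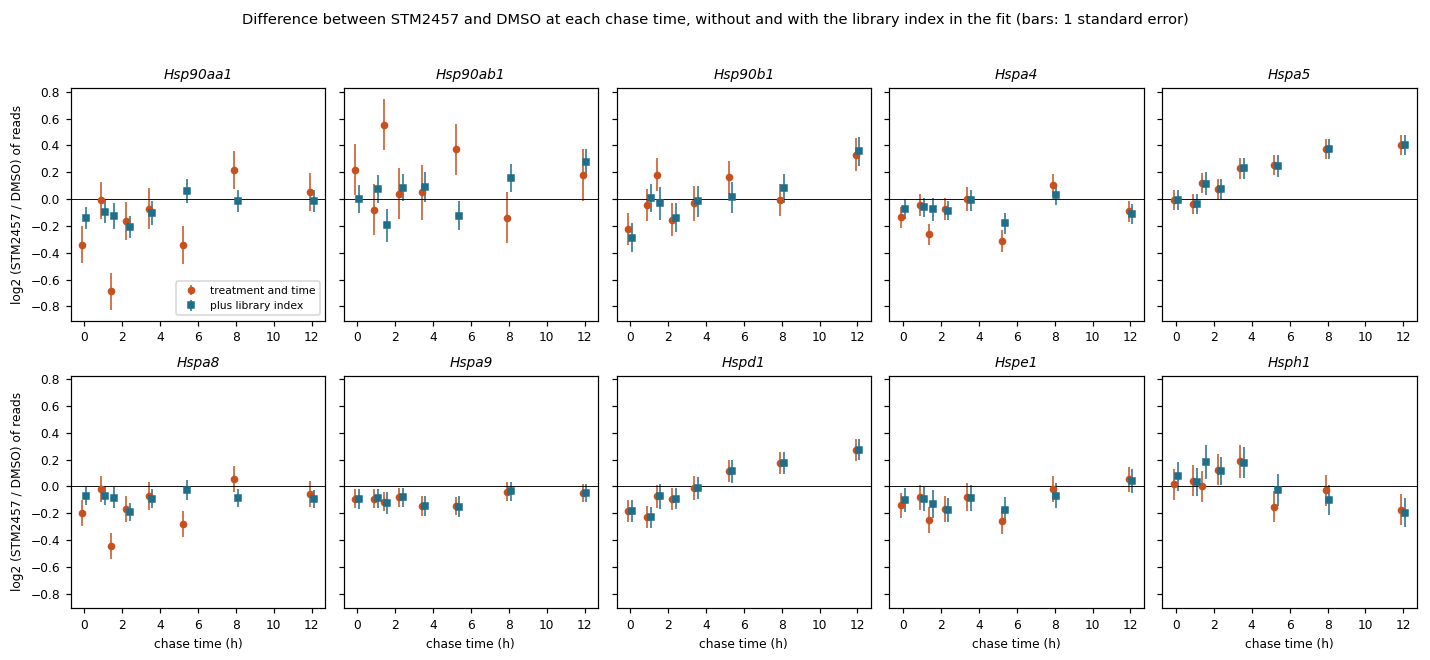
Log2 difference between STM2457 and DMSO read counts (vertical axis, shared) against hours of chase for each chaperone, with 1 standard error, from edgeR without (orange circles) and with (blue squares) the library index in the fit. Hspa5 climbs from near 0 to about 0.4 and Hspd1 from below 0 to 0.27 in both fits, while the values of Hsp90aa1, Hsp90ab1 and Hspa8 at 1.5 and 5.3 h shrink or change sign once the index is included.

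Change over the chase was compared between the treatments. From 0 to 12 h, 4 of the 10 chaperones changed in DMSO (13% of genes did) and all 4 fell, against 8.2% of genes that fell. These were Hsp90aa1 at −0.68, Hspe1 at −0.56, Hspa8 at −0.37 and Hspa4 at −0.29. In DMSO 3 of 4 libraries at 0 h but none at 12 h had an index below 0, and with it in the fit Hsp90aa1, Hspa8 and Hspa4 were no longer called (−0.23, −0.09 and −0.15), while Hsp90ab1 turned from 0.16 to −0.41 and was called (adjusted p = 0.0054, 11% of genes). Without multimapping reads the change of Hsp90aa1 in DMSO was −0.14 (adjusted p = 0.73) and was not called. In STM2457, 3 changed (4.72% of genes), Hspa5 and Hspd1 upward (1.69% of genes) and Hspe1 downward, and the index left all 3 in place. The difference between these changes was called for none of the 10 (1.11% of genes) in edgeR, with an unadjusted p under 0.05 for Hspd1 at 0.46 (SE 0.12, adjusted p = 0.016), Hspa5 at 0.41 (SE 0.11, adjusted p = 0.017) and Hsp90b1 at 0.56 (SE 0.17, adjusted p = 0.065). DESeq2 called 2 of the 10, Hspa5 and Hspd1. With the index in the fit Hsp90b1 (0.64, adjusted p = 0.0041) and Hspd1 (0.46, adjusted p = 0.0076) were called, where 1.68% of genes were, and without multimapping reads Hspd1 (0.73, adjusted p = 0.0068) and Hspa5 (0.46, adjusted p = 0.0070), where 1.08% were.

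A line through all 8 chase times uses all labelled libraries instead of the end points and was added after the values had been seen, so it describes the same rise more precisely and is no separate evidence for it. The slope, given as log2 change per 12 h, was higher in STM2457 than in DMSO for Hspd1 by 0.50 (SE 0.092, adjusted p = 9.2e-05) and for Hspa5 by 0.45 (SE 0.083, adjusted p = 0.00010). These 2 of 10 compare with 3.42% of genes called and 2.43% called higher. With the index in the fit they stood at 0.50 and 0.45, and Hsp90b1 joined them at 0.48 (SE 0.12, adjusted p = 0.0047), against 3.08% of genes called higher. For the cytosolic genes the fitted difference with the index ran from −0.33 (Hsph1) to 0.28 (Hsp90ab1), and none was called. The other mitochondrial chaperones, Hspe1 at 0.14 (adjusted p = 0.48, edgeR) and Hspa9 at 0.06 (adjusted p = 0.75, edgeR), were not called either. In that fit the steeper slope in STM2457 was thus called for both endoplasmic reticulum chaperones and, among the mitochondrial chaperones, for Hspd1 alone.

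Labelling for 24 h was compared with no labelling at the onset of the chase. In DMSO none of the 10 chaperones was called in edgeR (0.513% of genes were). An unadjusted p under 0.05 was reached by Hsp90b1 (−0.35), Hspd1 (−0.27) and Hspa5 (−0.26), and DESeq2 called 1, Hspa5. In STM2457 Hspd1 was called, at −0.43 (SE 0.082, adjusted p = 0.00089), where 0.521% of genes were. With the index in the fit it was −0.43 (adjusted p = 0.00017) and was called. Without STM2457 replicate 1, 2 or 3 it was −0.36, −0.42 or −0.48 and was not called, and without multimapping reads it was −0.24. In the fit with all libraries Hsp90b1 and Hspa5 had −0.44 (adjusted p = 0.039) and −0.29 (adjusted p = 0.022). A difference of the labelling effect between the treatments was called for none of the 10 (0% of genes) in edgeR, with no unadjusted p under 0.05, nor in DESeq2. In each treatment the largest negative values were those of Hsp90b1, Hspd1 and Hspa5, the genes whose slope was steeper in STM2457, and the 0 h libraries are common to both comparisons.

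Decay was followed by the conversion rate, the T-to-C conversions divided by all covered T positions. Without s4U the mean rate of the 10 chaperones was between 0.0481% and 0.114%, which is the background. At 0 h, Hsp90ab1 had a rate of 1.63% ± 0.0841 (SD, n = 4) under DMSO and of 1.51% ± 0.0744 (SD, n = 4) under STM2457, and Hspa5 had 1.31% ± 0.0864 and 1.29% ± 0.114 (SD, n = 4 each). A difference between the treatments at 0 h was called for none of the 10 (edgeR on conversions with T coverage as offset, 0% of 9975 genes called), and none had an unadjusted p under 0.05. Coverage was deep, from 8695 covered T positions for Hsph1 in its poorest library to 817152 for Hsp90ab1 in its richest. Counting intervals would cover counting error only, and errors here are taken from the libraries.

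**Figure D4:**
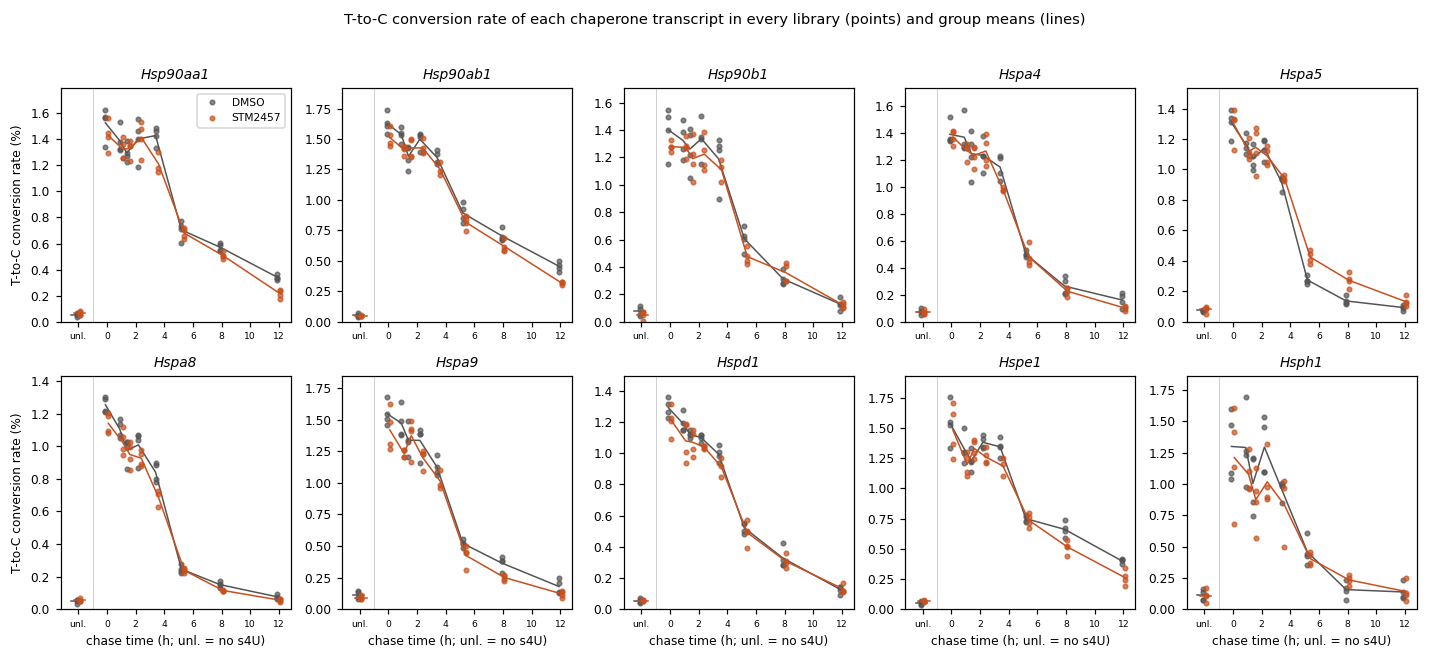
T-to-C conversion rate in percent (vertical axes starting at 0) of each chaperone against hours of chase, drawn to scale, with libraries without s4U left of the thin line. Points are libraries, lines join group means, DMSO is grey and STM2457 orange. All 10 lose label over the chase, and only for Hspa5 do the STM2457 points lie clear above the DMSO points at 5.3 and 8 h.

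Hspa5 had a higher conversion rate in STM2457 at 5.3 and 8 h. At 5.3 h its conversion rate was 0.270, 0.310, 0.270 and 0.246% in the DMSO libraries and 0.378, 0.442, 0.407 and 0.470% in the STM2457 libraries. At 8 h it was 0.123, 0.113, 0.174 and 0.136% against 0.218, 0.324, 0.278 and 0.268%. At 12 h the rates were 0.0906, 0.113, 0.0985 and 0.0708% in DMSO and 0.102, 0.1203, 0.127 and 0.174% in STM2457. The groups did not overlap at 5.3 and 8 h and overlapped at 12 h. The log2 difference was 0.63 (SE 0.13, adjusted p = 0.0018) at 5.3 h and 0.99 (SE 0.13, adjusted p = 2.8e-08) at 8 h, where 0.17% and 0.992% of genes were called, and 0.50 (SE 0.14, adjusted p = 0.017) at 12 h. No other chaperone was called at 5.3 or 8 h. The call at 8 h held in 11 of 11 alternatives and that at 5.3 h in 7 of 11, lost without DMSO replicate 3 or 4 or STM2457 replicate 2 or 4 (0.58 to 0.62). These tests at single times were added after the rates had been seen. After subtraction of the background, 16.2% of the label at 0 h was left in DMSO and 28.3% in STM2457 at 5.3 h, and 5.08% and 15.7% at 8 h. Because the rate is a share of all T positions, unlabelled Hspa5 RNA made during the chase lowers it as well.

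At 12 h, 5 chaperones had a lower conversion rate in STM2457. Among all genes 3.25% were called and 2.86% were called lower. Hsp90ab1 had rates of 0.445, 0.410, 0.466 and 0.503% in DMSO and 0.322, 0.326, 0.320 and 0.301% in STM2457. Hsp90aa1 had 0.322, 0.338, 0.365 and 0.338% in DMSO and 0.240, 0.176, 0.236 and 0.205% in STM2457, and Hspe1 had 0.409, 0.373, 0.404 and 0.411% in DMSO and 0.339, 0.193, 0.276 and 0.239% in STM2457. In all 3 genes each STM2457 library was below each DMSO library. The differences were −0.52 (SE 0.072, adjusted p = 3.3e-09), −0.67 (SE 0.11, adjusted p = 2.3e-06) and −0.61 (SE 0.13, adjusted p = 0.00039), and Hspa4 (−0.67, SE 0.16, adjusted p = 0.0022) and Hspa8 (−0.46, SE 0.12, adjusted p = 0.0049) were also called. Background was not subtracted in these tests. In STM2457 the mean rate of Hspa8 was 0.0544%, beside 0.0551% without s4U, and that of Hspa4 was 0.101%, beside 0.0697%. In DMSO these were 0.0750% beside 0.0481% for Hspa8 and 0.162% beside 0.0760% for Hspa4. The values of Hspa8 and Hspa4 thus lie near the background and do not give the size of a difference in label. Hspa9 (−0.57, SE 0.16, adjusted p = 0.011) and Hspa5, which was higher, missed the threshold, as did Hspd1 (0.03), Hsp90b1 (−0.08) and Hsph1 (0.03). The median of all genes at 12 h was −0.16, against −0.49 for the 10 chaperones. When the rates were taken relative to the overall rate of each library, none of these 5 was called, with values from −0.35 to −0.14, and Hspa5 was the 1 called, at 0.82 (SE 0.13, adjusted p = 1.2e-06), where 1.62% of genes were. The mean rate of Hspa5 at 12 h was 0.0931% in DMSO and 0.131% in STM2457, beside 0.0740% and 0.0819% without s4U. This scaling acts on the background too, so the value of 0.82 does not measure label alone.

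The loss from 0 to 12 h differed between the treatments for Hsp90ab1 alone, at −0.42 (SE 0.10, adjusted p = 0.0088), where 0.662% of genes were called. The call held in 4 of 11 alternatives and was lost without DMSO replicate 1, 3 or 4 or STM2457 replicate 2, 3 or 4 (−0.42 to −0.37). Relative to the overall rate of the library this became −0.19 (adjusted p = 0.22), and Hspa5 was called instead, at 0.74 (SE 0.17, adjusted p = 0.0079), where 0.411% of genes were. In edgeR without that scaling Hspa5 had 0.51 (SE 0.19, adjusted p = 0.16). The overall rate of the libraries thus decides which of the 2 passes, and the direction of neither changed. Background was subtracted in neither fit, and the rates of Hspa5 at 12 h lay close to it.

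Exponential half-lives put the chaperones among the more stable transcripts, although the loss of label followed an exponential only in part. The overall conversion rate of the DMSO libraries was 0.962 to 1.04% at 3.5 h and 0.496 to 0.572% at 5.3 h. Hsp90aa1 in DMSO had 93.4% of its label left at 3.5 h and 44.2% at 5.3 h. The median half-life was 3.10 h over 8751 transcripts in DMSO and 3.39 h over 8301 in STM2457. In DMSO all 10 chaperones were above that median, from Hspa8 at 3.46 h to Hsp90ab1 at 6.97 h, which was longer than 94.5% of transcripts. Hspe1 (6.505 h) and Hsp90aa1 (6.40 h) came next, then Hsp90b1 (5.08 h), Hspd1 (4.74 h), Hspa4 (4.70 h), Hspa9 (4.27 h) and Hsph1 (4.12 h), and Hspa5 had 3.59 h. Neighbours in this order overlapped between the replicate series. In STM2457 the order was similar, with 6.72 h for Hsp90ab1, 6.02 h for Hsp90aa1, 5.52 h for Hspe1 and 3.35 h for Hspa8, which fell just under the median. A straight line through the logarithm of the rate gave shorter half-lives, with the median over the chaperones at 2.67 in place of 4.72 h (DMSO) and at 2.67 in place of 4.51 h (STM2457). The rank of the chaperones among all transcripts was read from the exponential fit only.

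Hspa5 had a longer half-life in STM2457 (4.15 h), a difference that was not called over replicate series. Its half-life was 3.88, 3.57, 3.66 and 3.31 h in the 4 DMSO series. In the 4 STM2457 series it was 4.499, 3.94, 4.08 and 3.80 h, so the ranges overlapped slightly. In limma the log2 difference was 0.18 (SE 0.17, adjusted p = 0.73), with a 95% interval of −0.15 to 0.50. This SE is moderated over all transcripts tested and is not the spread of the Hspa5 series alone. Of the 9 chaperones with a half-life in each series, 0 were called (0.0548% of 1825 transcripts were), and none had an unadjusted p under 0.05. Hsph1 was not tested, since its series 1 missed the limit on the residual standard error in both treatments. The remaining differences ran from −0.25 for Hspe1 (95% interval −0.71 to 0.21) to 0.02 for Hsp90b1 (95% interval −0.40 to 0.43).

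**Figure D5:**
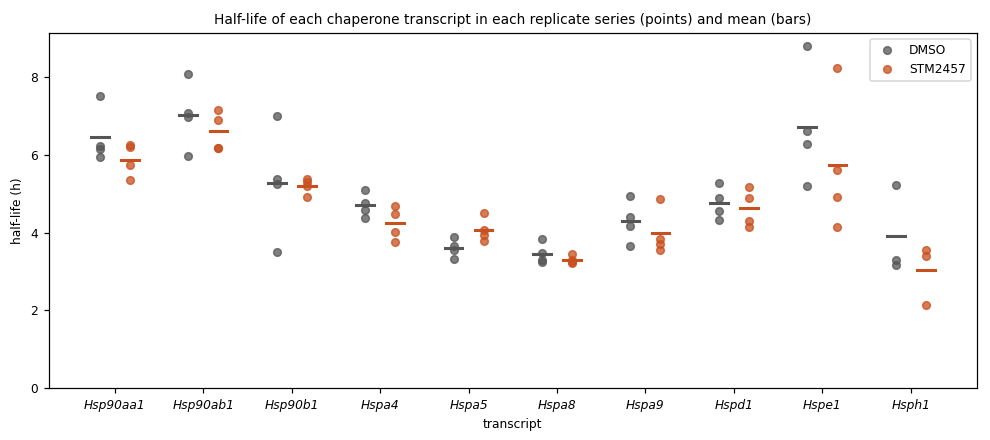
Half-life in hours (vertical axis starting at 0) of each chaperone transcript in each replicate series (points, up to 4 per treatment) with the mean (bars), DMSO in grey and STM2457 in orange. Hsp90aa1, Hsp90ab1 and Hspe1 lie highest, Hspa5 and Hspa8 lowest in DMSO, and Hspa5 is the only transcript whose mean is higher in STM2457.

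The surroundings of Hspa5 in the endoplasmic reticulum were read from a list of 32 tested folding and unfolded protein response genes. Averaged over the chase 4 were higher and 3 lower in STM2457, and 25 were not called, where 26.5% of all genes were called. The 3 of the higher genes with the smallest adjusted p (edgeR) were Xbp1, the transcription factor spliced by the sensor IRE1, at 0.48 (SE 0.06, adjusted p = 5.7e-10), the secreted factor Manf at 0.29 (SE 0.04, adjusted p = 8.2e-08) and the BiP co-chaperone Dnajb9 at 0.41 (SE 0.12, adjusted p = 0.0039). Dnajb9 was low, with a median of 7.51 CPM (lowest 1.43), so its difference rests on few reads. Lower were the disulphide isomerase P4hb at −0.14 (SE 0.03, adjusted p = 5.0e-05), Creld2 at −0.16 (SE 0.05, adjusted p = 0.0098) and Ddit3 (CHOP), the proapoptotic factor of the stress response, at −0.37 (SE 0.08, adjusted p = 0.00011). By the slope over the chase (3.42% of genes called), 3 were steeper in STM2457, Txndc5 at 0.88 (SE 0.17, adjusted p = 0.00031), the lectin chaperone Calr at 0.44 (SE 0.10, adjusted p = 0.0010) and the translocon subunit Sec61b at 0.53 (SE 0.13, adjusted p = 0.0055), and Ddit3 (−2.34, SE 0.25, adjusted p = 9.4e-11) and Herpud1 (−1.03, SE 0.20, adjusted p = 0.00021) were less steep. From 0 to 12 h in DMSO, 5 of the list rose and 1 fell (13% of genes called). Ddit3 rose by 2.36 (SE 0.22, adjusted p = 3.3e-13) and Herpud1, of the degradation machinery, by 1.88 (SE 0.18, adjusted p = 1.2e-12), and Sec61b fell by −0.53 (SE 0.12, adjusted p = 0.00052). Over the same interval in STM2457, 6 rose and 0 fell (4.72% of genes called), with Xbp1 at 0.84 (SE 0.16, adjusted p = 0.00022) and Atf4 at 0.42 (SE 0.08, adjusted p = 6.9e-05). The median change of the list was 0.04 in DMSO (0.04 for all genes) and 0.21 in STM2457 (−0.001 for all genes). At 12 h, where 5.41% of genes were called, Xbp1 (0.62, SE 0.16, adjusted p = 0.0060) and Manf (0.55, SE 0.12, adjusted p = 0.00063) were higher in STM2457, and Ddit3 (−2.19, SE 0.22, adjusted p = 7.4e-12) and Herpud1 (−0.85, SE 0.18, adjusted p = 0.00035) lower. Between the treatments the list thus moved in both directions. The median difference of the list was 0.01 averaged over the chase (−0.01 for all genes) and 0.12 for the slope (−0.03 for all genes).

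Heat-inducible HSP70 genes moved against Hspa5 at 12 h. The log2 difference was −1.21 (SE 0.23, adjusted p = 7.9e-05) for Hspa1b and −1.80 (SE 0.39, adjusted p = 0.00066) for Hspa1a. These near-identical genes share reads, so their separate values are uncertain. Both were low, with a median of 25.2 CPM (lowest 6.40) for Hspa1b and 5.68 CPM (lowest 1.22) for Hspa1a, so the differences rest on few reads. Of the 16 tested genes of this list of further heat shock proteins and heat shock factors, 1 was higher and 2 lower at 12 h (5.41% of genes called), and averaged over the chase 2 were higher and 1 lower (26.5% of genes called). Hspb8, a small heat shock protein, was higher at 0.34 (SE 0.06, adjusted p = 1.1e-06), as was Hspa13 at 0.35 (SE 0.07, adjusted p = 4.1e-05), and the ribosome-bound Hspa14 was lower at −0.35 (SE 0.04, adjusted p = 9.1e-10).

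Over the means of the 18 groups, the genes closest to Hspa5 in log2 level among 7958 genes with at least 10 CPM were Mrpl15 (Pearson r 0.89), Pmvk (0.88) and Fbxo6 (0.88). For Hspd1 they were Rdm1 (0.88), the mitochondrial import receptor Tomm70a (0.86) and the disulphide isomerase Pdia6 (0.79), and for Hspa8 Map2k1 (0.94), Hsp90aa1 (0.94) and Ipo11 (0.94). Among the chaperones themselves, Hspa8, Hsp90aa1, Hspa4 and Hspe1 had r from 0.81 to 0.94 with each other, and Hsp90aa1 and Hsp90ab1 had −0.83. The groups share libraries' index and depth, and these values are descriptions over 18 points.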

How the data were processed

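Libraries were made from 3′ ends with QuantSeq, and the authors processed them with SLAM-DUNK on GRCm38.p6, counting reads and T-to-C conversions in 3′ UTR windows and masking variants called from the unlabelled libraries. FastQC 0.11.8 is named in the submitters' processing notes. The deposited files hold, per gene, read counts, CPM (reads per 1000000 counted reads) and the conversion rate, a fraction of covered T positions. Counts were tested with edgeR 4.0.16 in R 4.3.3 (quasi-likelihood, TMM, filterByExpr, 18 groups, 71 libraries, adjusted p under 0.01 by Benjamini-Hochberg), conversions with log T coverage as offset. All edgeR p-values are adjusted over all genes tested. Half-lives were fitted as an exponential to background-subtracted rates relative to 0 h (T coverage over 100, 0.67 to 18 h, residual standard error up to 0.3) and tested with limma 3.58.1 on log2 values of replicate series, at an adjusted p under 0.05. DESeq2 1.42.0, other filters, scalings and left-out replicates were alternatives. The methods call replicates independent biological replicates. Among 105 replicate pairs 0 were identical, and the lowest chi-square per degree of freedom was 2.80. Intervals of 95% are the value ± 1.96 SE. All 10 chaperones are named, and from each list at most 3 called genes per direction with the smallest adjusted p. The chaperones and lists were chosen with earlier results of these data known. Scripts were tested on simulated data.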

Additional observations from a re-analysis of the deposited data

Results flagged for a closer look

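In groups of 4 libraries, a single library lay far from the other 3 in 9 of 248 groups examined over levels, rates and half-lives, where chance gives about 1 in 20. For levels these were Hsp90aa1 in STM2457 at 2.3 h (replicate 1, 1224 CPM, highest), Hsp90ab1 without s4U in DMSO (replicate 4, 1974 CPM, lowest), Hspa5 in DMSO at 3.5 h (replicate 2, 764.7 CPM, highest) and Hspa9 without s4U in DMSO (replicate 4, 521.9 CPM, lowest). Hsph1 was far off in STM2457 without s4U (replicate 1, 113.7 CPM, lowest), in STM2457 at 0 h (replicate 4, 199.5 CPM, highest) and in DMSO at 8 h (replicate 1, 171.9 CPM, highest). For conversion rates they were Hspa4 in DMSO at 0 h (replicate 3, 1.52%, highest) and Hspa8 in STM2457 without s4U (replicate 1, 0.0668%, highest).

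Change over the chase differed between the treatments, by a test of the difference itself, for the slope of Hspa5 (0.45 log2 per 12 h) and Hspd1 (0.50 log2 per 12 h) in edgeR, and for the loss of conversions of Hsp90ab1 from 0 to 12 h (−0.42). The slopes were added after the values had been seen, and the comparison of 12 h with 0 h called none of the 10 chaperones. The call for Hsp90ab1 held in 4 of 11 alternatives and was −0.19 (adjusted p = 0.22) relative to the overall rate of each library.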

How the results depend on the processing

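Of the called values of single chaperones, 312 comparisons with an alternative setting kept the call and 97 lost it, and none changed direction. Of the counts of chaperones called and median half-lives, 51 of the alternatives moved and 214 did not. Averaged over the chase the count of 6 became 3 without a filter on low counts, 3 with the library index, 1 at 2.3, 3.5 and 12 h only, and 2 to 7 when 1 replicate number of 1 treatment was left out (3 without DMSO replicate 2 or 4, 2 without STM2457 replicate 3). At 12 h the count of 1 became 2 with the index or DESeq2 and 3 with only the groups compared, and at the other chase times 4 became 1 with the index and 2 (without STM2457 replicate 3) to 7 (without DMSO replicate 1). For s4U against none in DMSO, 0 became 1 in DESeq2. In STM2457 1 became 0 without a filter, without multimapping reads or with only the groups compared, 2 in DESeq2, and 0 to 1 with a replicate left out. From 0 to 12 h, 4 in DMSO became 2 with the index and 2 to 4 with a replicate left out (2 without DMSO replicate 2 or 4), and 3 in STM2457 became 0 (without STM2457 replicate 3) to 3 (1 without STM2457 replicate 2). Their difference, 0, became 2 without multimapping reads, with the index, with only the groups compared and in DESeq2, and 0 to 1 with a replicate left out (1 without DMSO replicate 4). The half-life count of 0 became 1 (Hsp90aa1) with a linear fit of the log rate, which also moved the median half-life from 4.72 to 2.67 h (DMSO) and from 4.51 to 2.67 h (STM2457). Without 3.5 h the DMSO median was 4.24 h. For conversion rates, the difference of the losses, 1, became 0 to 2 with a replicate left out (2 without STM2457 replicate 1), and at 12 h 5 became 1 relative to the overall rate of the library, 2 with only the groups compared and 2 (without STM2457 replicate 2) to 7 with a replicate left out. At 8 h 1 became 1 to 2, and at 5.3 h 0 to 1. Where no cause is given by the setting itself, the cause was not tested.

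In read counts, replicate numbers did not pair the libraries. Over 35 pairs of same-numbered libraries the correlation of deviations was 0.0075 on average, from −0.064 to 0.231, and over 0.1 in 1. The overall conversion rate was lowest in replicate 1 of both treatments at 0, 1.5 and 2.3 h, though not of both at the other chase times. At 0 h replicate 1 had 1.28% in DMSO and 1.18% in STM2457, against 1.37 to 1.43% and 1.27 to 1.36% in the other replicates. A link of same-numbered libraries in their conversion rates was not tested. With the replicate number as a block 6 chaperones were called averaged over the chase, and the block moved no count by over 1.5 times. Comparisons at single times rest on 4 libraries a group, which limits what they can call.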

Other observations

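Of 25 tested co-chaperones and HSP90 partners, 2 were higher and 5 lower in STM2457 averaged over the chase (edgeR, as in the report), where 26.5% of all genes were called. Bag5, a nucleotide exchange factor of the BAG family, was higher by 0.79 (SE 0.09, adjusted p = 7.6e-11) on the log2 scale, at a median of only 17.3 CPM, and Bag3, which links HSP70 to selective autophagy, by 0.29 (SE 0.07, adjusted p = 0.00024). Among those lower were the HSP90 cochaperones Sugt1 at −0.36 (SE 0.05, adjusted p = 1.1e-09) and Ptges3 (p23) at −0.14 (SE 0.02, adjusted p = 2.5e-06), and the cyclophilin Ppid at −0.29 (SE 0.06, adjusted p = 2.0e-05). Of 16 J-domain genes, read against the same 26.5%, 2 were higher, Dnajb1 at 0.27 (SE 0.04, adjusted p = 6.5e-08) and Dnaja2 at 0.15 (SE 0.03, adjusted p = 9.1e-06), and 2 lower, Dnajc2 at −0.34 (SE 0.06, adjusted p = 9.8e-07) and Dnajb12 at −0.28 (SE 0.07, adjusted p = 0.00052).

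The cytosolic chaperonin and prefoldin had 8 of 14 tested genes lower in STM2457 and 0 higher, where 12.6% of all genes were lower, with a median log2 difference of −0.18 against −0.01 for all genes. Cct4 was at −0.30 (SE 0.04, adjusted p = 6.2e-10), Cct6a at −0.26 (SE 0.03, adjusted p = 2.4e-09) and the prefoldin subunit Vbp1 at −0.36 (SE 0.07, adjusted p = 2.1e-05). At 12 h, where no library has an index below 0, 0 of the 14 were called (5.41% of all genes) and the median was −0.07. In DMSO 4 of them fell from 0 to 12 h (8.2% of all genes), and in STM2457 0 were called. The part of the library index in these values was not tested.

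Of 15 genes for mitochondrial folding and proteolysis, 2 were higher and 3 lower averaged over the chase, where 26.5% of all genes were called. Grpel2, a nucleotide exchange factor for Hspa9, was at 0.32 (SE 0.07, adjusted p = 0.00026) and Clpb at 0.20 (SE 0.06, adjusted p = 0.0073), while the proteases Htra2, Yme1l1 and the unfoldase Clpx were at −0.32 (SE 0.05, adjusted p = 1.4e-06), −0.28 (SE 0.05, adjusted p = 1.7e-05) and −0.42 (SE 0.11, adjusted p = 0.0027). By the slope over the chase (3.42% of all genes called) 1 was steeper in STM2457, Grpel1 at 0.57 (SE 0.15, adjusted p = 0.0088), as for Hspd1.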
